A study of Homo sapiens with 6 samples.

Results

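AP-1 is a family of dimeric transcription factors built from JUN proteins (JUN, JUNB, JUND), FOS proteins (FOS, FOSL1, FOSL2) and relatives such as ATF3, which join through leucine zippers. JUN proteins can pair with each other or with FOS proteins, whereas FOS proteins need a JUN partner to bind DNA. Many of these genes are immediate early genes, meaning that growth factor or stress signals raise their transcription within minutes without new protein synthesis, and their messenger RNAs are usually short-lived. The set described here holds 10 genes chosen by symbol, namely FOS, FOSL1, FOSL2, JUN, JUNB, JUND, ATF3, EGR1, IER2 and IER3, of 50229 symbols in the deposited gene table. EGR1 is a zinc finger factor induced by serum, IER2 is an immediate early nuclear protein, and IER3 is a stress-induced survival protein rather than a DNA-binding factor. All 10 were found, each in a single row, and all 10 passed the filter on low values, among 13748 genes tested.

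RNA was sequenced from Hep3B cells, as the labels name them, a line derived from a human liver carcinoma. In 3 libraries EIF4G2 was silenced with 50 nM of siRNA (siEIF4G2), and in 3 libraries the cells received a control siRNA at 50 nM (siNC). The labels give the same dose in both groups and no time after transfection. EIF4G2 (DAP5) resembles EIF4G1 and takes part in starting translation, and the comparison asks which transcripts differ when it is silenced. Deposited counts summed to between 63351653 and 72863628 per library. EIF4G2 itself measured 179, 181 and 201 CPM (CPM being counts scaled to the TMM-adjusted library total over tested genes) in siEIF4G2 libraries, against 1110, 919 and 1004 CPM in siNC libraries, 5.41-fold lower (edgeR adjusted p = 0.000207). Of 10 hepatocyte markers fixed as a list, 7 were at 0 counts in all 6 libraries, ALB, AFP and APOA1 among them, and all 10 were under 1 FPKM, so these transcripts go against the Hep3B label in all 6 libraries. The labels' extraction protocol also speaks of an adipose type of RNA, while the tissue is given as liver. The keratins KRT8 and KRT18 were high, with KRT8 at 183 FPKM and KRT18 at 185 FPKM on average (FPKM being fragments per kilobase of transcript and per fixed number of fragments). Nothing in the labels says that the replicates of a group are separate cultures, and the p-values below therefore rest on a library-to-library spread that may be technical.

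After silencing, 4 of the 10 genes fell, 0 rose and 6 did not pass the test. JUNB, JUND, ATF3 and IER3 were 1.57-fold, 1.39-fold, 1.48-fold and 1.32-fold lower in siEIF4G2. Across all tested genes, 17.6% were called lower, 15.9% higher and 33.4% either way by the same rule, an edgeR adjusted p under 0.05. The median log2 fold change of the 10 genes was -0.44, and that of all tested genes was 0.0075. The 10 genes were chosen with earlier results of these data known, which limits the comparison with all tested genes. The 3 siEIF4G2 values lay wholly below the 3 siNC values for 6 of the 10 genes, the 4 that fell plus JUN and IER2, where 25.6% of all tested genes did so. They lay wholly above for 0 of the 10, against 25.0% of all tested genes, and the groups were apart in either direction for 50.6% of all tested genes. In bulk RNA, fewer cells expressing a gene and less of its RNA per cell cannot be told apart.

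The stretches upstream of JUNB and JUND, which fell, and of EGR1 and FOS, which did not pass, are printed because the sequences to which immediate early factors bind lie in such promoters. Each line holds the 250 bases before the RefSeq start of the gene (GRCh38.p14), read 5′ to 3′ on the strand of the gene. Capitals mark matches to TATAAA (the TATA box), to TGACGTCA (the cyclic AMP response element, bound by ATF and JUN dimers), to the CArG box (bound by the serum response factor SRF) and to GCGNGGGCG (the EGR site).
JUNB, chr19:12791236-12791485, plus strand: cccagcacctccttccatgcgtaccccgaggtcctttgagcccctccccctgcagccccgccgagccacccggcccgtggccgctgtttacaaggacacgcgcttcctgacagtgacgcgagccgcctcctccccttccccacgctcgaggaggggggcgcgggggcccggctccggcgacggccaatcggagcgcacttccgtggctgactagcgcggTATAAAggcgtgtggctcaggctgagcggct
JUND, chr19:18281623-18281872, minus strand: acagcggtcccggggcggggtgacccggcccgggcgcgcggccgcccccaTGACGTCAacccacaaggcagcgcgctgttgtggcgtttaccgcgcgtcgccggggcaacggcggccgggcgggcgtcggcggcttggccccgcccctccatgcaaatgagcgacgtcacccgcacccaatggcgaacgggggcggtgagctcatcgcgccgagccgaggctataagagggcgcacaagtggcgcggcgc
EGR1, chr5:138465229-138465478, plus strand: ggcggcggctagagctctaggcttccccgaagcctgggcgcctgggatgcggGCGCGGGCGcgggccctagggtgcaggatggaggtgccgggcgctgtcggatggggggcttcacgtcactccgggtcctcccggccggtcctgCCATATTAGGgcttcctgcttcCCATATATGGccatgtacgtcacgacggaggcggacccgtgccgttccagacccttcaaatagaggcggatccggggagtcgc
FOS, chr14:75278578-75278827, plus strand: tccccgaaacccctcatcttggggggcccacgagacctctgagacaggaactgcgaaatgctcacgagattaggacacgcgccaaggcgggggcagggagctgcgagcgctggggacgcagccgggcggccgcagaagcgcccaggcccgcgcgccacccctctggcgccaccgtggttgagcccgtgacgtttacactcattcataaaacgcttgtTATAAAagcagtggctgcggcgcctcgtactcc

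RefSeq promoter windows of 300 bases, 250 before and 50 after the start, were matched for 8 of the 10 genes, and both strands were searched. The EGR1 window held a CArG box starting 105 bases and another starting 83 bases before the start, a motif found in 1.29% of 35116 such windows, and an EGR site, found in 9.43%. JUND held the cyclic AMP response element 200 bases before its start, found in 1.85% of windows. JUNB and FOS held a TATA box 31 and 33 bases before the start, found in 11.5% of windows. The AP-1 site TGANTCA, found in 7.71% of windows, was matched only in FOSL2 among the 8, beginning 4 bases after the start base. That RefSeq start lies 410 bases from the start of the deposited FOSL2 interval. These are letter matches to fixed forms in a window, and variant or more distant sites were not sought. No binding was measured.

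JUNB, a JUN protein that is a weaker transactivator than JUN, fell with the smallest SE of the 10 genes. It measured 88.8, 88.2 and 82.4 CPM in the siEIF4G2 libraries, against 135, 139 and 133 CPM in the siNC libraries. The groups were far apart relative to their spread, with means of 86.5 ± 3.52 CPM in siEIF4G2 and 136 ± 3.15 CPM in siNC (SD, n = 3 each). On the log2 scale JUNB differed by -0.65 (SE 0.048), with an edgeR adjusted p of 0.000512. JUNB (ENSG00000171223) lies on chromosome 19 from 12791486 to 12793315, plus strand, in GRCh38 coordinates as for all positions given here, and no other gene of the table overlaps it. For a single gene, the exact two-sided permutation test cannot go below p = 0.1 with 3 libraries in each group, and JUNB reached that value.

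JUND, a JUN protein known for steady expression in resting cells, measured 87.0, 98.7 and 86.2 CPM in the siEIF4G2 libraries, against 139.6, 127 and 111 CPM in the siNC libraries. The groups did not overlap, but the siNC libraries ranged 1.25-fold from lowest to highest, wider than the 1.05-fold range of JUNB. The means were 90.6 ± 6.97 CPM in siEIF4G2 and 126 ± 14.2 CPM in siNC, which is -0.47 on the log2 scale (SE 0.099) with an edgeR adjusted p of 0.0140. JUND (ENSG00000130522) lies on chromosome 19 from 18279694 to 18281622, minus strand.

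JUN, the founding member of the family, measured 8.96, 9.68 and 9.20 CPM in siEIF4G2 libraries and 13.9, 10.1 and 11.4 CPM in siNC libraries. All siEIF4G2 values were below all siNC values, by a small margin from siNC replicate 2. A log2 fold change of -0.35 (SE 0.13) did not pass (edgeR adjusted p = 0.0962). JUN (ENSG00000177606) lies on chromosome 1 from 58780791 to 58784047, minus strand.

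**Figure D1:**
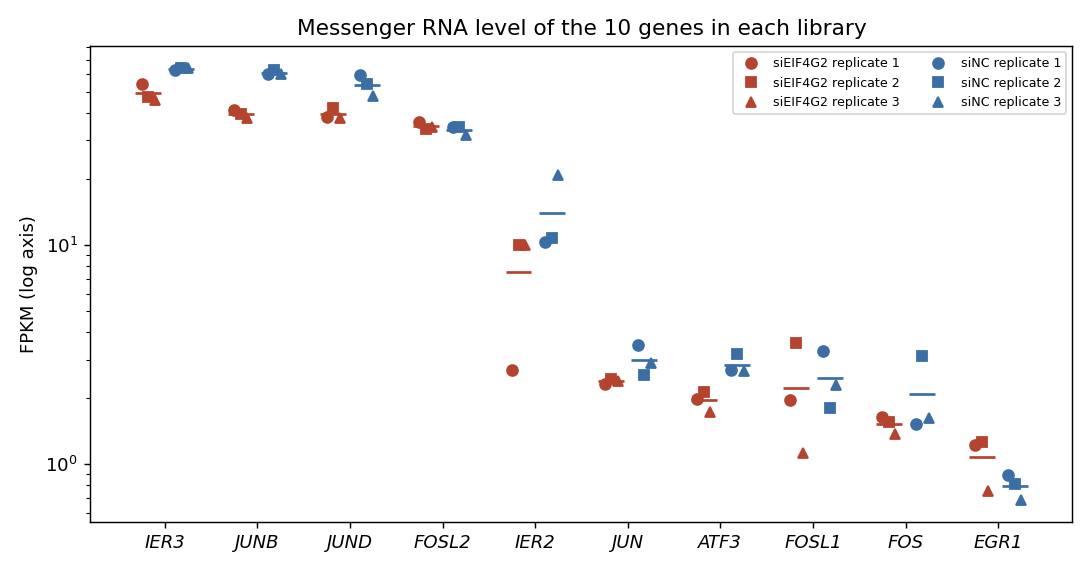
FPKM (log axis) of each of the 10 genes in every library, siEIF4G2 left in red and siNC right in blue, with bars at the group means. JUNB, JUND, IER3, ATF3, JUN and IER2 show siEIF4G2 points below all siNC points, while FOS, FOSL1, FOSL2 and EGR1 overlap. JUN and IER2 did not pass the test.

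FOSL2, also called FRA2, was the FOS family member with the highest level and did not pass the test. It measured 308, 294 and 293 CPM in siEIF4G2 libraries, against 299.9, 299.6 and 275 CPM in siNC libraries. The groups overlapped, and the log2 difference was 0.034 (SE 0.050) with an edgeR adjusted p of 0.648. FOSL2 (ENSG00000075426) spans 28392448 to 28417312 on chromosome 2, plus strand, and the 2 loci that overlap it averaged 0.134 and 0.492 FPKM against 34.3 FPKM for FOSL2.

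FOS, the classic serum-induced partner of JUN, measured 6.21, 6.07 and 5.18 CPM in the siEIF4G2 libraries, against 5.96, 12.1 and 6.30 CPM in the siNC libraries. The groups overlapped, and siNC replicate 2 stood apart, 2.03-fold above the lowest siNC library. FOS differed by -0.48 (SE 0.29) on the log2 scale (edgeR adjusted p = 0.257), and by -0.07 without siNC replicate 2. FOS (ENSG00000170345) lies on chromosome 14 from 75278826 to 75282230, plus strand.

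FOSL1, also called FRA1, a FOS protein linked to invasive tumour cells, measured 4.38, 8.24 and 2.55 CPM in siEIF4G2 libraries, against 7.56, 4.13 and 5.28 CPM in siNC libraries. The siEIF4G2 values lay below, within and above the siNC range, with a 3.23-fold range among siEIF4G2 libraries and a 1.83-fold range among siNC libraries. Its log2 difference of -0.16 (SE 0.45) did not pass (edgeR adjusted p = 0.813) and changed sign with the libraries used, as it was 0.16 without siEIF4G2 replicate 3 and 0.10 without siNC replicate 1. FOSL1 (ENSG00000175592) lies on chromosome 11 from 65892049 to 65900419, minus strand.

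Levels of different genes can be compared per length, as FPKM. The JUN family summed to 81.5 ± 3.02 FPKM in siEIF4G2 and 118 ± 6.52 FPKM in siNC (SD, n = 3 each), a ratio of 0.691. The FOS family, without FOSB, summed to 38.7 ± 1.48 FPKM in siEIF4G2 and 38.1 ± 2.15 FPKM in siNC, a ratio of 1.02. The quotient of the JUN sum over the FOS sum was therefore 2.04, 2.16 and 2.11 in siEIF4G2 libraries, against 3.15, 3.03 and 3.11 in siNC libraries. The groups did not overlap, as was so for 50.6% of all tested genes. JUNB, JUND and FOSL2 made up most of the sums, so the quotient mainly restates their values and is no separate result. These sums describe messenger RNA, and the proteins and their dimers were not measured.

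Within the JUN family, JUNB made up 48.7% ± 1.61 of the FPKM in siEIF4G2 and 51.9% ± 2.69 in siNC, and JUND made up 48.4% ± 1.58 in siEIF4G2 and 45.5% ± 2.55 in siNC. JUN made up 2.93% ± 0.102 in siEIF4G2 and 2.53% ± 0.354 in siNC. The shares overlapped between groups for JUNB and JUND. That of JUN was apart by a small margin, at 2.85% to 3.05% in siEIF4G2 and 2.14% to 2.83% in siNC. Within the FOS family, FOSL2 made up 90.4% ± 3.29 in siEIF4G2 and 88.1% ± 0.799 in siNC.

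**Figure D2:**
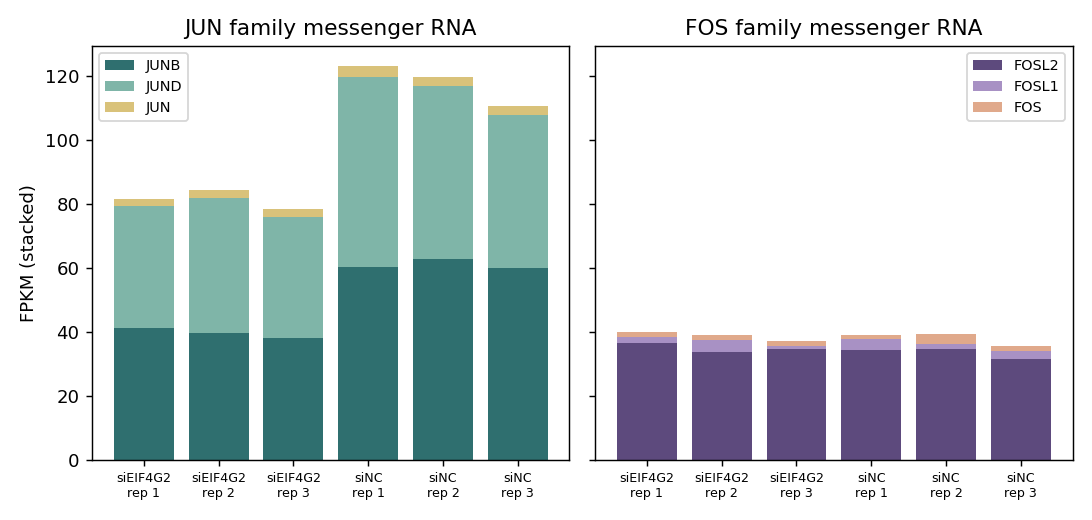
Stacked FPKM of JUNB, JUND and JUN (left panel) and of FOSL2, FOSL1 and FOS (right panel) in each library, siEIF4G2 replicates left of siNC replicates. The JUN stacks reach 78.4 to 84.4 FPKM in siEIF4G2 and 111 to 123 FPKM in siNC, while the FOS stacks reach 37.1 to 40.0 FPKM in siEIF4G2 and 35.6 to 39.5 FPKM in siNC.

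ATF3, a stress-induced partner of JUN proteins that also acts as a repressor when paired with itself, measured 9.48, 10.6 and 8.32 CPM in siEIF4G2 libraries, against 13.2, 15.6 and 13.0 CPM in siNC libraries. The groups did not overlap. The means were 9.46 ± 1.12 CPM in siEIF4G2 and 14.0 ± 1.47 CPM in siNC, which is -0.56 on the log2 scale (SE 0.13) with an edgeR adjusted p of 0.0198. The call was lost on leaving out siEIF4G2 replicate 1 (adjusted p = 0.0582), siEIF4G2 replicate 3 (0.0518) or siNC replicate 2 (0.0578), with log2 fold changes of -0.56, -0.48 and -0.47. ATF3 (ENSG00000162772) spans 212565334 to 212620772 on chromosome 1, plus strand.

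IER3, a stress-induced protein that modulates cell survival, measured 86.2, 77.8 and 73.3 CPM in siEIF4G2 libraries, against 103, 105 and 105 CPM in siNC libraries. The siNC libraries were within 1.02-fold of each other, and all siEIF4G2 libraries lay lower. This gave -0.40 on the log2 scale (SE 0.067), with an edgeR adjusted p of 0.00632. IER3 (ENSG00000137331) lies on chromosome 6 from 30743199 to 30744548, minus strand, opposite IER3-AS1, which averaged 0.683 FPKM against 56.5 FPKM for IER3, and whether strand was used in counting is not given.

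IER2, an immediate early nuclear protein, had the largest point estimate and the largest spread. It measured 9.80, 37.5 and 36.3 CPM in the siEIF4G2 libraries, against 38.7, 40.3 and 77.8 CPM in the siNC libraries. Replicates 2 and 3 of siEIF4G2 and replicates 1 and 2 of siNC were close to each other, while siEIF4G2 replicate 1 was far below them and siNC replicate 3 far above. The log2 fold change of -0.91 (SE 0.55) did not pass (edgeR adjusted p = 0.248), and it was -0.50 without siEIF4G2 replicate 1 and also -0.50 without siNC replicate 3. IER2 (ENSG00000160888) lies on chromosome 19 from 13150411 to 13154911, plus strand.

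EGR1, a zinc finger factor whose promoter carries the CArG boxes printed above, had the lowest level of the 10 genes. It measured 4.51, 4.79 and 2.78 CPM in the siEIF4G2 libraries, against 3.42, 3.11 and 2.61 CPM in the siNC libraries. Replicates 1 and 2 of siEIF4G2 were above all siNC libraries and replicate 3 was within them. EGR1 differed by 0.40 (SE 0.24) on the log2 scale and did not pass (edgeR adjusted p = 0.241). EGR1 (ENSG00000120738) lies on chromosome 5 from 138465479 to 138469303, plus strand, and its deposited counts lay between 178 and 334 per library.

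**Figure D3:**
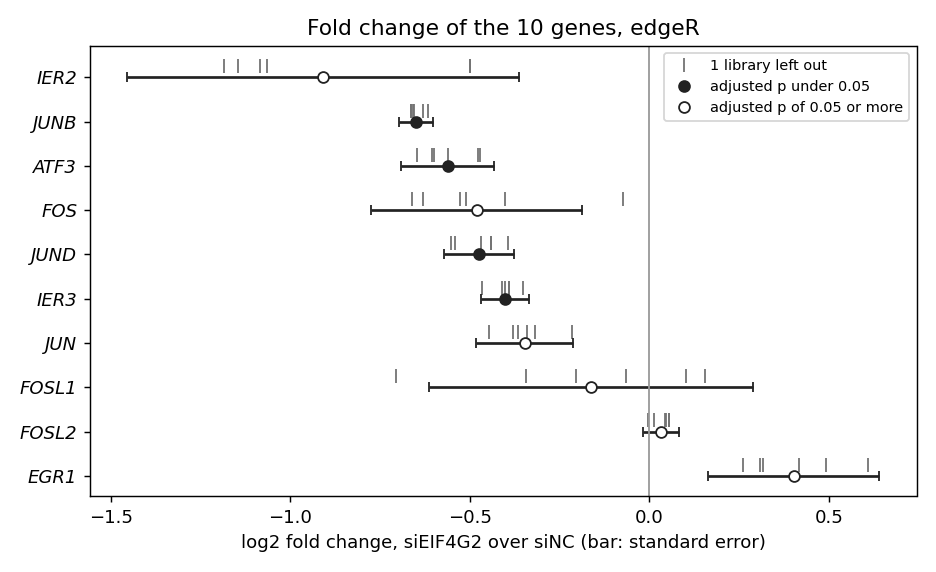
Log2 fold change of siEIF4G2 over siNC for the 10 genes with edgeR standard errors, filled where the adjusted p was under 0.05, and grey ticks for the 6 fits that each leave out 1 library. JUNB, JUND, ATF3 and IER3 are filled and lie between -0.65 and -0.40, and the ticks of FOSL1 and FOSL2 fall on both sides of 0.

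In siNC libraries the order of FPKM levels was IER3 (63.8 ± 0.837), JUNB (61.1 ± 1.46), JUND (53.8 ± 5.89), FOSL2 (33.5 ± 1.60), IER2 (14.0 ± 5.97), JUN (2.99 ± 0.472), ATF3 (2.84 ± 0.303), FOSL1 (2.46 ± 0.751), FOS (2.09 ± 0.900) and EGR1 (0.798 ± 0.105). JUN, ATF3, FOSL1 and FOS overlapped with their neighbours in that order and are not told apart by these libraries. In siEIF4G2 libraries the order of the highest 4 was the same, but JUNB (39.7 ± 1.49 FPKM) and JUND (39.4 ± 2.40 FPKM) overlapped. By mean FPKM over all libraries, the highest 4 genes lay between the 91.8 and 95.4 percentiles of tested genes, IER2 at 73.6, and the lowest 5 between 12.3 and 35.9.

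The spread between replicates differed widely among the 10 genes. The pooled SD of log2 CPM within groups was 0.048 for JUNB and 0.059 for FOSL2, under the median of 0.12 over all tested genes. It was 0.86 for IER2, 0.61 for FOSL1 and 0.39 for FOS, at the 98.1, 96.2 and 91.0 percentiles of tested genes. Over the 45 pairs of genes, the correlation of deviations from the group means had a median r of 0.32 (n = 6 libraries), from -0.83 for FOSL2 with IER2 to 0.88 for JUNB with ATF3. JUNB and EGR1 deviated together within groups (r = 0.87), although JUNB was lower and EGR1 not called after silencing. These values are descriptions over 6 libraries, with no test.

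**Figure D4:**
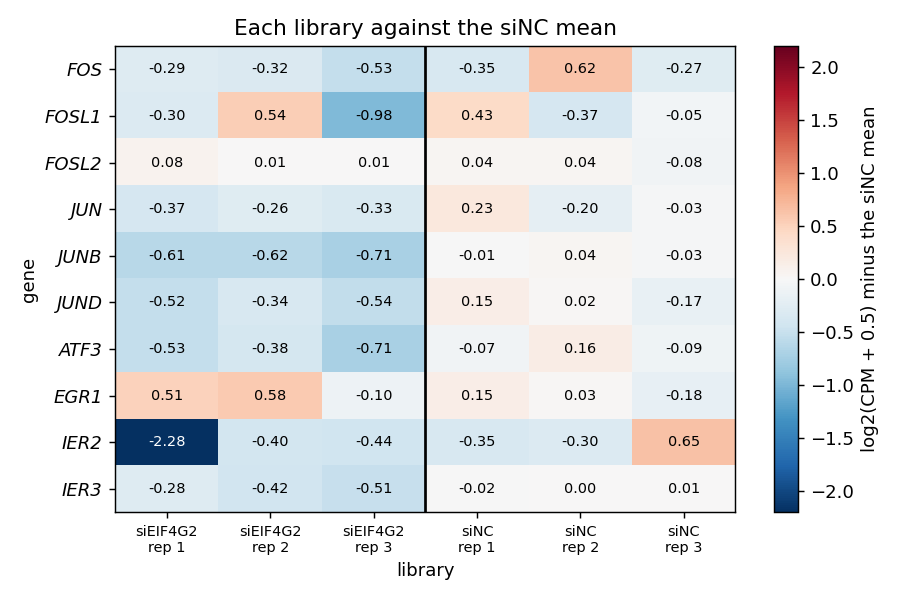
Log2(CPM + 0.5) of each gene in each library minus the mean of the siNC libraries, with siEIF4G2 columns left of the line. JUNB reads -0.71 to -0.61 in siEIF4G2, IER2 reads -2.28 in siEIF4G2 replicate 1 and 0.65 in siNC replicate 3, and FOS reads 0.62 in siNC replicate 2.

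Over the 6 libraries, the genes with the pattern most like each of the 10, by Pearson r of log2 CPM among 8902 genes of at least 2 FPKM, were sought. For JUNB these were NECAB3 and CLIP2 (r = 0.9996 and 0.999). The number of genes above r = 0.95 was 233 to 967 for the 4 genes called lower and 5 to 24 for the 6 others. Since r was taken over both groups, it also counts genes that differ between them, and no chance number was computed. The pair was UBTD1 and PNPLA6 for JUND (0.998 and 0.997), ARPC5L and TRAF2 for ATF3 (0.996 each), and COA6 and SNX33 for IER3 (0.996 each). For FOS it was PRMT2 and CMIP (0.994 and 0.990), both highest in siNC replicate 2, where CMIP read 78.7 CPM against 43.2 to 46.5 CPM elsewhere. For IER2 it was ACAD8 and RILP (0.994 and 0.993), and RILP read 7.71 CPM in siEIF4G2 replicate 1, its lowest library, and 14.2 CPM in siNC replicate 3, its highest. For the others it was RITA1 and PPCS with JUN (0.991 and 0.985), POLG2 and CIC with FOSL2 (0.976 each), XRCC1 and RANGRF with EGR1 (0.993 and 0.985), and NOMO2 and TMA16 with FOSL1 (0.973 and 0.970), where NOMO2 shares reads with close paralogs.

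Other AP-1 relatives and small MAF proteins, which bind DNA through the same kind of zipper, held called genes in both directions. Of 14 listed, 11 were tested, 4 fell, 1 rose and 6 did not pass, where 17.6% of all tested genes were called lower and 15.9% higher. The median log2 fold change of the list was -0.24. BATF2, an interferon-induced member that lacks a transactivation domain, averaged 0.415 ± 0.126 CPM in siEIF4G2, against 2.17 ± 0.348 CPM in siNC, 5.22-fold lower (edgeR adjusted p = 0.00223). MAFF, a small MAF protein, was 1.42-fold lower (edgeR adjusted p = 0.0153), but missed the threshold without siNC replicate 2 (log2 fold change -0.46, adjusted p = 0.0517) or siNC replicate 3 (-0.47, 0.0527). BATF3, which pairs with JUN proteins in dendritic cells, averaged 2.05 ± 0.483 CPM in siEIF4G2, against 0.813 ± 0.186 CPM in siNC, 2.51-fold higher (edgeR adjusted p = 0.0129). BATF3 was 1.33 higher on the log2 CPM scale of edgeR and 0.40 higher with limma on log2(FPKM + 1), a scale that understates changes of low genes. MAFF overlaps PLA2G6 on the other strand (2.18 FPKM for MAFF and 0.471 FPKM for PLA2G6). Without siNC replicate 2, the list had 2 genes called lower rather than 4.

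Of 22 other immediate early genes, 18 were tested, 4 fell and 1 rose, with a median of -0.019. These counts are near the background of 17.6% lower and below that of 15.9% higher, and are no result about the list. BTG2, an antiproliferative gene induced early by p53, averaged 13.2 ± 0.905 CPM in siEIF4G2, against 28.8 ± 0.313 CPM in siNC, 2.18-fold lower (edgeR adjusted p = 0.000407). ZFP36, which binds AU-rich messenger RNAs and shortens their life, was 1.97-fold lower, and IER5 was 1.23-fold lower (edgeR adjusted p = 0.00505 and 0.00393). NR4A3, an orphan nuclear receptor, was 1.36-fold higher (edgeR adjusted p = 0.00619). The list had 2 genes called higher without siNC replicate 2, and also with library totals only, DESeq2, limma-voom and limma on log2 FPKM with either pseudocount.

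Of 24 kinases and nuclear effectors that signal to AP-1 and immediate early promoters, all tested, 7 rose, 0 fell and 17 did not pass, with a median log2 fold change of 0.13. Among all tested genes 33.4% were called either way, and taken either way the number called is not above that background. By direction, 7 of 24 rose where 15.9% of all tested genes rose, and 0 of 24 fell where 17.6% fell. The list was chosen with earlier results of these data known and was not tested as a set. SRF, which binds CArG boxes, averaged 79.1 ± 1.54 CPM in siEIF4G2 and 58.3 ± 3.46 CPM in siNC, 1.36-fold higher (edgeR adjusted p = 0.00287). ELK4 and ELK3, ternary complex factors that bind beside SRF, were 1.51-fold higher and 0.49 higher on the log2 scale (edgeR adjusted p = 0.00406 and 0.00417). MAPK9, the JUN kinase JNK2, averaged 92.0 ± 1.45 CPM in siEIF4G2, against 62.6 ± 0.772 CPM in siNC, 1.47-fold higher (edgeR adjusted p = 0.000501). A single gene of the list was called lower without siEIF4G2 replicate 1, siNC replicate 1 or siNC replicate 3.

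Of 13 tested genes among 14 phosphatases that switch MAP kinases off and other feedback inhibitors, 4 fell, 0 rose and 9 did not pass, with a median of -0.34. Taken either way, the number called is near the 33.4% called among all tested genes. By direction, 4 of 13 fell where 17.6% of all tested genes fell, and 0 of 13 rose where 15.9% rose. This list, too, was chosen with earlier results of these data known and was not tested as a set. DUSP4, DUSP1, DUSP5 and DUSP8 were 2.45-fold, 1.92-fold, 1.88-fold and 1.56-fold lower, with edgeR adjusted p between 0.000207 and 0.00344. DUSP1, itself an immediate early gene, averaged 146 ± 7.15 CPM in siEIF4G2 and 279.8 ± 5.63 CPM in siNC.

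Of 28 genes described elsewhere as AP-1 targets, 18 were tested, 10 fell, 0 rose and 8 did not pass, with a median of -0.33. Among all tested genes 17.6% fell, 15.9% rose and 33.4% were called either way. The list, chosen with earlier results of these data known, was not tested as a set. LAMB3, a laminin chain, HMOX1, heme oxygenase, and VEGFA, the angiogenic growth factor, were 1.90-fold, 2.17-fold and 1.24-fold lower (edgeR adjusted p = 0.000389, 0.000423 and 0.00257). Without siEIF4G2 replicate 1, 2 genes of the list were called higher. Each of these genes also answers to other factors, and AP-1 binding was not measured.

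Of 13 genes of the integrated stress response, in which ATF4 and its partners raise ATF3, 4 fell and 2 rose, with a median of -0.12, where 17.6% of all tested genes fell and 15.9% rose. The count that rose is at the background and is no result about the list. GADD45A, SESN2 and VLDLR were 1.67-fold, 1.71-fold and 1.38-fold lower (edgeR adjusted p = 0.00188, 0.00269 and 0.00437). ASNS, asparagine synthetase, was 1.43-fold higher (edgeR adjusted p = 0.0202). The 7 that did not pass include ATF4 itself, with a log2 fold change of -0.018 (edgeR adjusted p = 0.959). The others were DDIT3 (-0.11), CHAC1 (-0.22), PMAIP1 (-0.12), DDIT4 (0.0012), TRIB3 (0.17) and CDKN1A (-2.03, SE 0.71). The number called higher was 0 without siEIF4G2 replicate 2, siEIF4G2 replicate 3 or siNC replicate 3, and 1 without siEIF4G2 replicate 1 or siNC replicate 2.

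**Figure D5:**
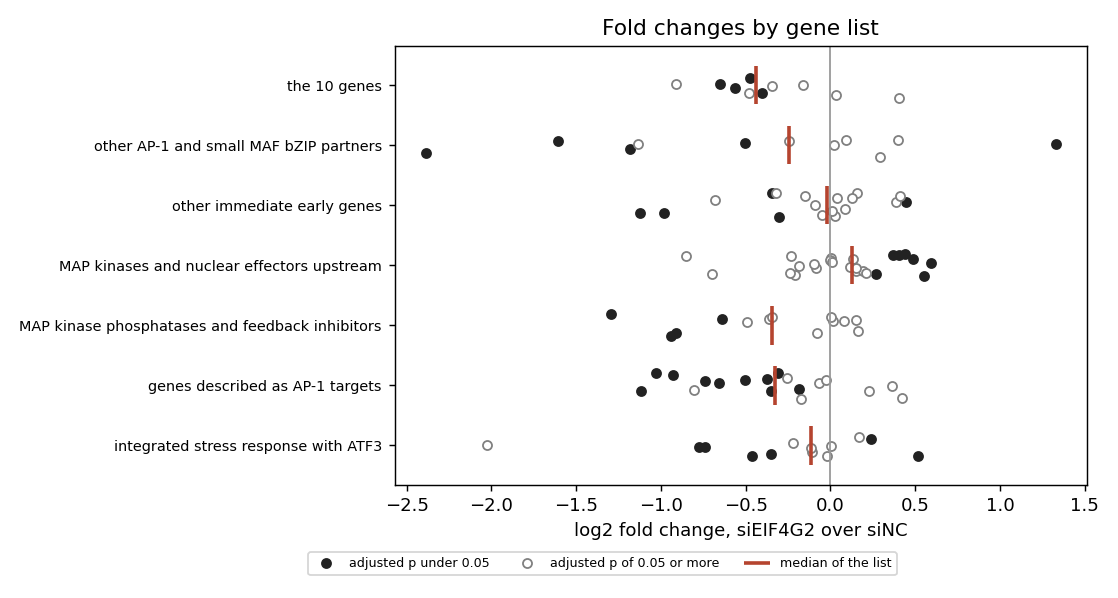
Log2 fold change of siEIF4G2 over siNC for each tested gene of the 10 and of the 6 related lists, filled where the edgeR adjusted p was under 0.05, with a red bar at the median of each list. Called genes lie left of 0 for the 10 genes, the phosphatases and the described targets, right of 0 for the upstream kinases and effectors, and on both sides for the other 3 lists.

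Markers of other cell types were read beside these results. The summed level of 5 fibroblast markers was 95.3 to 98.2 FPKM in siEIF4G2 and 74.2 to 82.9 FPKM in siNC, that of 5 immune markers was 7.67 to 9.63 FPKM in siEIF4G2 and 12.1 to 14.1 FPKM in siNC, and that of 5 endothelial markers was 0.439 to 0.550 FPKM in siEIF4G2 and 1.35 to 1.42 FPKM in siNC. COL3A1 and LUM carried the fibroblast sum and were called higher, while COL1A1 and PDGFRB were called lower. The 5 epithelial markers summed to 339 to 367 FPKM in siEIF4G2 and 382 to 389 FPKM in siNC, a sum carried by KRT8 and KRT18. PTPRC and CD3E were at 0 counts in all libraries, and CD68 carried most of the immune sum. The part of these differences in the values above was not tested.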

How the data were processed

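RNA of 6 libraries was analysed from 1 deposited table. HISAT2 2.0 and StringTie 1.3.0 are named, per the submitters' processing notes, without roles. Build, annotation and strand: not given in the sources used here. Values in the table are the authors' estimated counts as whole numbers, and FPKM, with 0.0001 FPKM where the count is 0. Gene intervals overlapped GENCODE release 29 (GRCh38) for 99.9% of 58394 shared identifiers. Where rows shared a symbol, the row with the highest mean FPKM was kept. Genes reaching 0.5 FPKM in 3 or more libraries were tested with the quasi-likelihood test of edgeR 4.0.16 (TMM scaling, group as the only term, R 4.3.3). Two-sided p-values were adjusted over the 13748 genes by Benjamini-Hochberg. The SE was derived from the log2 fold change and the F statistic of each gene. The procedure was tested on simulated data. Alternatives used limma 3.58.1, DESeq2 1.42.0, other scalings and filters, a replicate block, and each library left out. Counts carry counting error besides the spread of replicates. The 10 genes and the lists were chosen with earlier results of these data known. Up to 4 called genes with the smallest p in each list are named, with the 2 genes most like each of the 10 by Pearson r; some of these are not reported here. Promoters are from RefSeq (GRCh38.p14).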

Additional observations from a re-analysis of the deposited data

How the results depend on the processing

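JUNB, JUND and IER3 were lower with an adjusted p under 0.05 in all 17 alternatives, and ATF3 in 14, its exceptions being the libraries named above. The number of the 10 genes called lower stayed at 4 in every alternative that kept all libraries and was 3 or 4 when 1 library was left out. The 6 others were called in no alternative; EGR1, tested in 16 of them, fell under the filter at a minimum of 1 FPKM. Leaving out a library moved the log2 fold change of FOSL1 between -0.71 and 0.16 and that of FOSL2 between -0.0020 and 0.055. Of all genes, 4597 were called, 3352 to 4134 with a library left out and 3736 to 5343 under the other settings. Same-numbered replicates deviated together by r of -0.021, 0.019 and 0.034, so the numbers were not used as pairs, and siEIF4G2 replicates 1 and 2 correlated best with other numbers. With the replicate block, 3736 genes were called, JUNB, JUND, ATF3 and IER3 among them (adjusted p = 0.00681, 0.0278, 0.0231 and 0.0240), while ASNS, BATF3 and MAFF missed the threshold (0.0614, 0.0563 and 0.0532) with log2 fold changes of 0.53, 1.32 and -0.50, close to those without it. Setting the filter at 1 FPKM left BATF2 and BATF3 untested. MAFF also missed the threshold without siNC replicate 2 or 3, and ASNS without siEIF4G2 replicate 2 or 3 or siNC replicate 3. Among the kinases and effectors, 2 genes were called lower with DESeq2 and 0 in the edgeR fit. The causes were not tested. With 3 libraries a group, genes of wide spread (FOS, FOSL1, IER2, EGR1) allow no firm statement, and FOS, FOSL1 and EGR1 are also at few CPM.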

Other observations

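FOSB, the fourth FOS protein, was too low to test, with a mean of 0.152 FPKM and at most 100 counts in a library. The immediate early factors EGR2, EGR3 and EGR4 reached at most 11, 11 and 0 counts. Among the described AP-1 targets, the metalloproteinases MMP1, MMP3, MMP9 and MMP10 reached at most 11, 4, 8 and 8 counts, while MMP13 was tested.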
